A study of Mus musculus with 20 samples.

Results

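The 10 genes described here encode the proteins that make a fast-twitch muscle fibre contract and relax, the myosin heavy chains left aside. They are the troponin genes Tnnt3, Tnni2 and Tnnc2, the myosin light chain genes Myl1 and Mylpf, the tropomyosin gene Tpm1, the calcium-handling genes Atp2a1, Casq1 and Pvalb, and the Z-disc gene Actn3. They were chosen by name, with no measured value in the rule, but with earlier results of these data known. All 10 were among the 55401 genes of the count matrix and passed the filter on low counts that left 13626 genes. RNA-seq counts of the gastrocnemius, a large and mostly fast muscle of the calf, were available for 20 C57BL/6 mice collected at 24 months of age. Of these, 10 had received HK (Haenkenium), an extract of the plant Salvia haenkei, given with the drinking water at a dose of 0.5 mg/kg/day from 20 months of age, that is for 4 months, and 10 were untreated, with drinking water in the place of a dose in their labels. Each of the treated and untreated groups held 5 males and 5 females, and each mouse gave 1 library. The libraries came from 2 experimental batches, with 8 mice in batch 1 and 12 in batch 2, and both batches held both sexes and both treatments in equal numbers. All mice were aged animals without a transgene named in the labels, and young mice were not analysed here.

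In a resting fibre, troponin and tropomyosin keep myosin from binding actin, and calcium released from the sarcoplasmic reticulum lifts this block. The calcium is then bound by parvalbumin, pumped back by the SERCA pump and stored on calsequestrin. Fast and slow fibres use different genes for most of these steps, so that nearly every gene described here has a relative that is used in slow fibres or in all striated muscle, and old muscle is known for changes in the balance of the fibre types.

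The promoters of 3 of the genes are shown because their RNA levels are compared below and because the stretch holds no annotated exon. Each is the 250 bases before the RefSeq start (GRCm38.p6), 5' to 3' on the strand of the gene. Capitals mark the E-box, CANNTG, the motif bound by MyoD and other basic helix-loop-helix factors. Casq1 lies on the minus strand with this stretch at chr1:172219896-172220145, Mylpf on the plus strand at chr7:127211358-127211607, and Pvalb on the minus strand at chr15:78206401-78206650.
Casq1: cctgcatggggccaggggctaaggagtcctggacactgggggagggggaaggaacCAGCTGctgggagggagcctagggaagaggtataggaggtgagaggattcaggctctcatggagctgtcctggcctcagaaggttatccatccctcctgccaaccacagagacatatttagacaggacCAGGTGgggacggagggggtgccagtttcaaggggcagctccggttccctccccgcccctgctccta
Mylpf: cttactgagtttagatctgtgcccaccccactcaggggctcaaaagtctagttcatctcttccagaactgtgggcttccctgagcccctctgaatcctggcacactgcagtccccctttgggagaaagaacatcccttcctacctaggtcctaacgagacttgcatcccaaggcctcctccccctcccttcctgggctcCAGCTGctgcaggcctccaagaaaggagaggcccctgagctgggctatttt
Pvalb: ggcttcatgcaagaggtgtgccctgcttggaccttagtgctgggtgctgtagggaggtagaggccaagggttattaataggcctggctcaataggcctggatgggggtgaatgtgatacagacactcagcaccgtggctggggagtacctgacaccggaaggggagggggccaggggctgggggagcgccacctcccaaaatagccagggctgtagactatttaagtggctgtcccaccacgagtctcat
The Casq1 promoter held an E-box 195 bases and another 67 bases before the start, and the Mylpf promoter held 1 at 51 bases before it. None was present in the Pvalb stretch shown, while a second Pvalb start in RefSeq had 1. RefSeq promoters were matched for 7 of the 10 genes (Myl1, Casq1, Tnnc2, Atp2a1, Mylpf, Tpm1 and Pvalb). These had 8 promoter records, and all but the Pvalb stretch shown held an E-box in the 250 bases. Of 32851 mouse promoter records of the same length, 66.2% held one, searched on both strands with overlaps allowed. TATAAA was found in 1 of the 8 records (Myl1), against 12.4% of all promoters. No match to the MEF2 motif (0.508% of all promoters), the CArG box (1.47%) or the MEF3 motif TCAGGTTTC (0.387%) was present in these windows.

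Libraries held 13900180 to 30469644 counts, and the 10 genes together took between 12% and 14.5% of it, so that counting error is small beside the spread between mice. Counts of mice from 1 group and batch differed beyond sampling error, with a chi-square per degree of freedom of 8.22 to 52.1, and no library was counted as a duplicate. Markers of skeletal muscle were high in every mouse, with a summed level of 57600 to 74900 CPM (counts per 1000000 after TMM scaling of the library). One mouse, untreated female 3, stood apart in several of the genes. She had the lowest level of the 20 mice for Myl1 (3671 CPM), Pvalb (3477), Casq1 (1487), Tpm1 (11948) and Tnnc2 (7136), but not for Atp2a1 (39456) or Actn3 (13171). Her 10 slow contractile genes summed to 5680 CPM, the highest of the females, and her library of 15858270 counts was within the range of the others. Untreated male 3 had the highest sum of slow contractile genes of all mice, 7536 CPM against a median of 1192 in males. Values without either mouse are given beside some of the results that moved, but not beside all.

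The genes were among the most abundant in the muscle. Per kilobase of merged exon length, on which genes can be compared, Tnnt3 (troponin T of fast fibres, chr7:142498836-142516009) had the highest level, with 14257 ± 1605 CPM per kb (SD, n = 20), and ranked 4 among the 13626 genes. Its neighbour Tnni2 (the inhibitory subunit, chr7:142441808-142444410) had 5706 ± 805 CPM per kb. Tnnc2, the calcium-binding subunit (chr2:164777161-164779967), had 12127 ± 1789 CPM per kb. Atp2a1, the SERCA pump of fast fibres (chr7:126445858-126463108), and the regulatory light chain gene Mylpf (chr7:127208890-127214298) followed. The lowest was Casq1, the calcium store of the sarcoplasmic reticulum (chr1:172209894-172219868), with 1319 CPM per kb, and this was the only member whose range over the 20 mice did not overlap that of its neighbour in the order, Tpm1 (chr9:67022590-67049406). The order between neighbours nevertheless held in nearly all mice for several pairs: Tnnt3 was above Tnnc2 and Tnni2 above Actn3 (chr19:4861216-4877909) in 20 of 20 mice, whereas Mylpf was above Pvalb (chr15:78191114-78206400) in 13 of 20. Positions and lengths are from GENCODE M21 on GRCm38. Of the 800 exon bases of Tnnc2, 592 lie in exons of Ube2c on the other strand, and whether the counting used strand is not given in the sources used here. Ube2c itself held 0.261 to 0.763% as many counts as Tnnc2.

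HK against untreated was the comparison the study was made for. None of the 10 genes passed the test, and neither did any other of the 13626 genes (percent called 0; quasi-likelihood test of edgeR, p adjusted by Benjamini-Hochberg over all genes, batch and sex as covariates). Before adjustment, 379 genes (2.78%) had a p under 0.05 and a higher level with HK and 456 (3.35%) a lower one, none of the 10 among them. DESeq2's Wald test called 7 genes and limma voom 0, again none of the 10. The log2 fold changes of the 10 genes were between -0.06 and 0.18, with adjusted p of 0.83 to 0.984 by edgeR. Their median was 0.09, beside 0.002 over all genes tested, and 9 of the 10 were above 0. In whole muscle, fewer fibres of a type and less RNA per fibre cannot be told apart, here and in all that follows.

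Pvalb, the soluble calcium buffer that speeds relaxation of fast fibres, had the largest difference. In untreated mice it was between 3477 and 8520 CPM with a median of 6776, and in HK-treated mice between 6064 and 10082 with a median of 7660. The groups overlapped over most of their range, and 6 of 10 HK-treated mice were above the untreated median. The log2 fold change was 0.18 (95% interval -0.06 to 0.43, adjusted p = 0.83 by edgeR), and 0.11 without untreated female 3. Casq1 was between 1487 and 2953 CPM (median 2503) in untreated mice and between 2219 and 3147 (median 2612) in HK-treated mice. This is a log2 fold change of 0.13 (-0.05 to 0.31), or 0.07 without untreated female 3. Actn3, the alpha-actinin of the Z-disc of fast fibres, was between 8633 and 14112 CPM (median 11230) in untreated mice and between 8460 and 16340 (median 11923) in HK-treated mice. Although 9 of 10 HK-treated mice were above the untreated median, the fold change of 0.12 (-0.1 to 0.35) was smaller than the spread. For Atp2a1 the medians were 37220 and 36950 CPM, with a log2 fold change of 0.09 (-0.07 to 0.26). It was -0.02 in batch 1 and 0.17 in batch 2, and 0.16 in males and 0.03 in females, and none of these passed. In males of batch 2 the 3 untreated mice had 27238 to 30372 CPM and the 3 HK-treated mice 35804 to 36852. Actn3 was also apart in these mice (8633 to 10176 and 11357 to 11887 CPM), while the others of the 10 genes overlapped. This subset was noticed after its values were seen and was not tested. How many of all genes separate in it was not counted. The 95% intervals of the 3 troponin genes reached at most 0.22 and those of the light chain genes at most 0.21. No member passed the test for an interaction of treatment with sex (differences of -0.08 to 0.12, adjusted p = 0.998 for each) or with batch (-0.03 to 0.27, adjusted p = 1 for each), with 0% of all genes called in both. At an unadjusted p under 0.05, 1.83% of all genes were higher and 1.67% lower for sex, and 1.55% higher and 1.45% lower for batch, and none of the 10 was among them. DESeq2 called 0 genes in both.

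**Figure D1:**
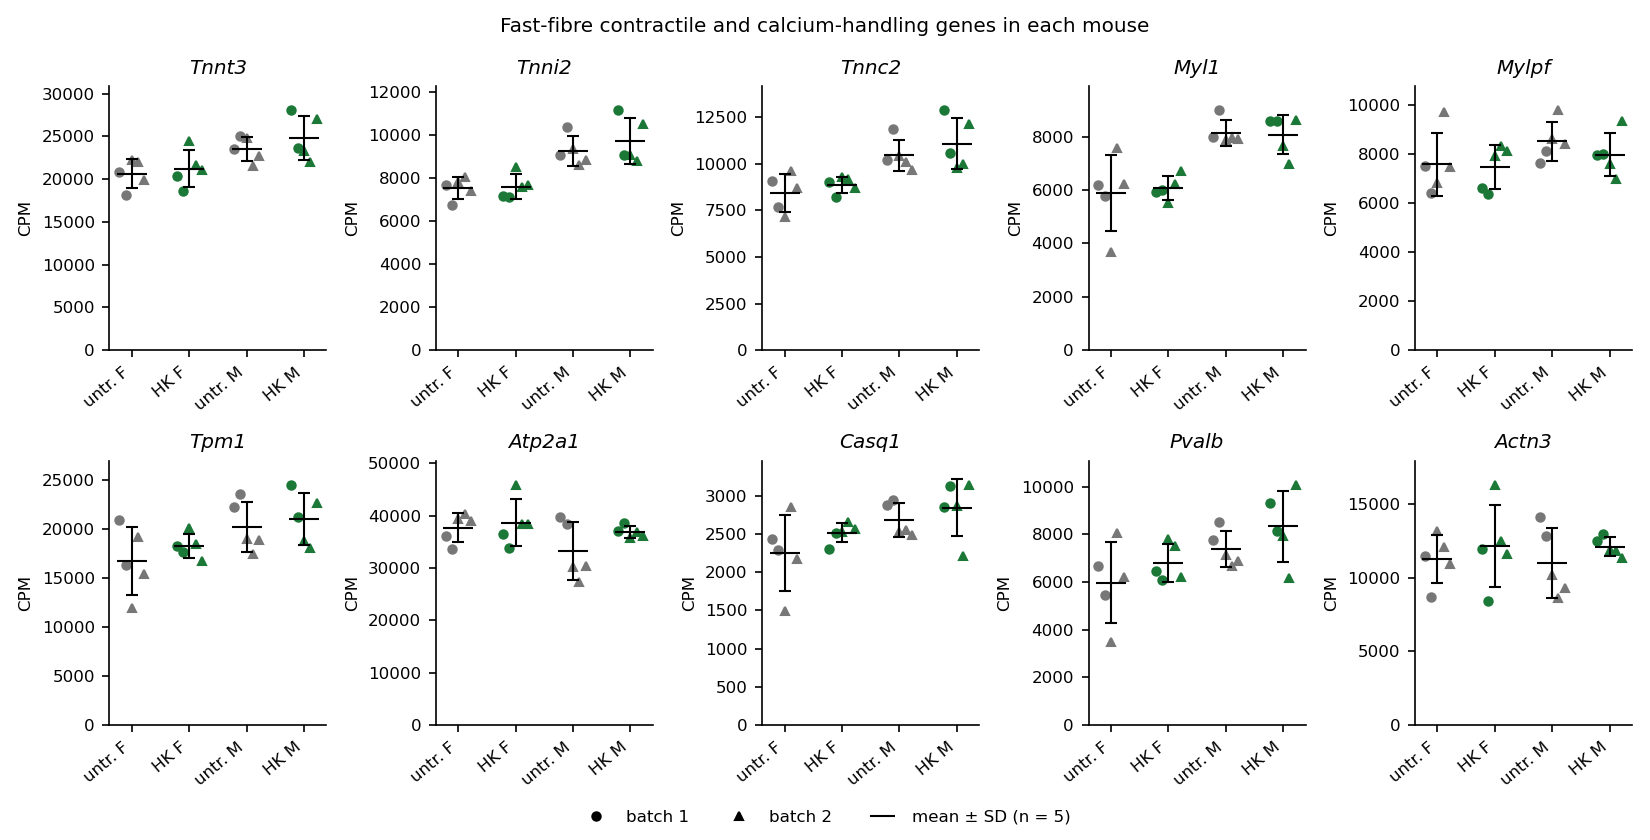
Level of each of the 10 genes in every mouse, in CPM on axes that start at 0. Columns are untreated (grey) and HK-treated (green) females (F) and males (M), circles are batch 1 and triangles batch 2, and bars give the mean ± SD of 5 mice. Tnni2 and Tnnc2 lie higher in all males than in all females, while treated and untreated mice of the same sex overlap for every gene.

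Most of the genes have a relative that serves the same role in slow fibres or in striated muscle in general, and the ratio of the 2 within a mouse does not depend on library size. For 9 pairs, the log2 ratio of counts was compared between HK-treated and untreated mice by a two-sided exact permutation test within sex and batch (14400 reassignments), with p-values adjusted over the 9 ratios tested. The members made up far the larger share in every mouse: per kilobase, the median of the fold between member and relative was 141 for Tnni2 over Tnni1, 109 for Tnnt3 over Tnnt1, 70.6 for Casq1 over Casq2 and 12.7 for Actn3 over Actn2.

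The mean difference was towards the fast gene with HK in each of the 9 pairs, by 0.44 to 0.68, and passed the test in 2. Without untreated male 3 the differences of the 7 pairs that did not pass were 0.24 to 0.41, and without untreated male 4 they were 0.58 to 0.79. Actn2 encodes the alpha-actinin present in all striated fibres. The log2 ratio of Actn3 to Actn2 was between 2.52 and 3.87 with a median of 2.82 in untreated mice, and between 3.02 and 3.97 with a median of 3.43 in HK-treated mice. All 10 HK-treated mice were above the untreated median, although the ranges overlapped. The difference was 0.48 (exact permutation p = 0.00125, adjusted p = 0.0112), and it passed without any single mouse (0.42 to 0.52, adjusted p of 0.00562 to 0.025). It was 0.15 in batch 1 (exact p = 0.278) and 0.7 in batch 2 (exact p = 0.005). In batch 1 the smallest p the design allows is 0.0556, and the difference between batches was not tested. Among females the medians were 2.88 without and 3.36 with HK, and among males 2.64 and 3.49. The relative contributed more than the member: Actn2 was between 882 and 2141 CPM (median 1406) in untreated mice and between 886 and 1425 (median 1083) in HK-treated mice, a log2 fold change of -0.36 with SE 0.1 (unadjusted p = 0.00116), which did not pass over all genes (adjusted p = 0.795 by edgeR).

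Casq2 encodes the calsequestrin of slow and cardiac muscle. The log2 ratio of Casq1 to Casq2 was between 4.09 and 6.96 with a median of 5.45 in untreated mice, and between 5.25 and 7.14 with a median of 5.87 in HK-treated mice, with 9 of 10 above the untreated median. The difference was 0.68 (exact permutation p = 0.00597, adjusted p = 0.0269), 0.44 in batch 1 (exact p = 0.0556, the smallest it can give) and 0.83 in batch 2 (exact p = 0.04). It did not pass without any 1 of 7 mice, among them untreated female 3 (0.54, adjusted p = 0.055 by the exact permutation test) and untreated male 3 (0.59, adjusted p = 0.0638). The other 5 were untreated male 1, HK males 2 and 3 and HK females 2 and 5. Casq2 itself was at 22.2 to 88.3 CPM in these mice, with a log2 fold change of -0.57 (95% interval -0.97 to -0.17), which did not pass over all genes (adjusted p = 0.795 by edgeR).

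The other 7 ratios had exact p of 0.0575 to 0.148 (adjusted p of 0.115 to 0.148 by the permutation test). The ratio of Tnni2 to Tnni1 shows how these samples lay. In females it lay between 4.97 and 5.85 (median 5.47) without HK and between 5.25 and 5.9 (median 5.51) with HK. In males it lay between 4.73 and 8.25 (median 6.68) without HK and between 7.11 and 8.49 (median 7.81) with HK. Untreated males were thus the most scattered group. Without untreated male 4 all 9 ratios passed, and without untreated male 3 only that of Actn3 to Actn2 did. The 10 slow contractile genes as a list had log2 fold changes below 0 in 10 of 10, with a median of -0.67, and none passed over all genes. Without untreated male 3 the median was -0.26, with 10 of 10 still below 0. Markers of some other cell types were below 0 as well, 7 of 7 for macrophages (median -0.29), 4 of 4 for endothelium (-0.26), 4 of 4 for fibroblasts (-0.46) and 3 of 3 for smooth muscle (-0.17). Those of others were mostly above 0, 5 of 5 for erythrocytes (0.47), 3 of 3 for Schwann cells (0.36), 3 of 3 for tendon (0.04) and 2 of 3 for adipocytes (0.12). The part of these cell types in the ratios was not tested. The sum of the slow list was between 1033 and 7536 CPM (median 3361) in untreated and between 950 and 4296 (median 2442) in HK-treated mice.

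**Figure D2:**
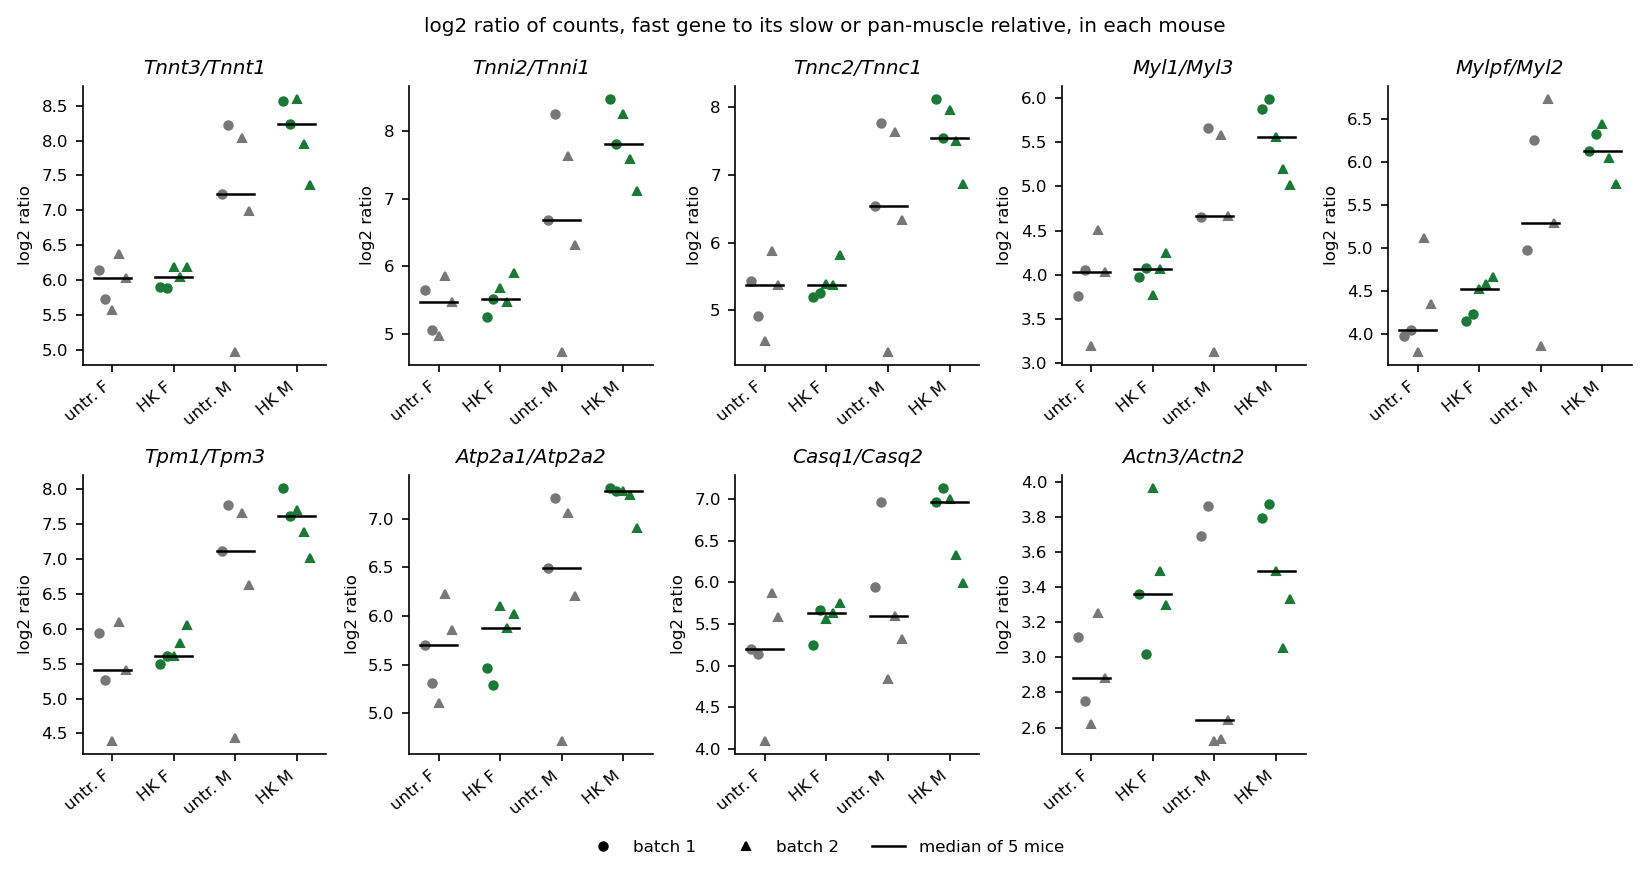
The log2 ratio of the counts of a fast gene to those of its relative in each mouse, for 9 pairs. Colours and symbols are as in the plot of levels, and black lines are medians of 5 mice. For Actn3 over Actn2 the treated mice of both sexes lie mostly above the untreated, whereas for the troponin pairs most males lie above the females and untreated males spread from among the females to among the HK-treated males.

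No relation between members and their relatives from mouse to mouse passed a test. After centring within treatment, sex and batch, Pearson's r between the 2 genes of a pair was between -0.27 and 0.44 over 20 mice, Spearman's rho between -0.33 and 0.36, and no pair passed (adjusted permutation p of 0.716 or more for both, 9 pairs, 100000 resamples). Without the 2 mice farthest from the median of the relative, r was between -0.24 and 0.3. Within the batches r had opposite signs for several pairs, with -0.74 in batch 1 and 0.51 in batch 2 for Tnni2 and Tnni1, -0.39 and 0.64 for Tnnt3 and Tnnt1, and -0.68 and 0.16 for Tnnc2 and Tnnc1 (8 and 12 mice, not tested). Each sex and treatment held 2 mice in batch 1 and 3 in batch 2, so few independent differences remain after centring.

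Males against females gave the clearest difference in these genes. Of the 10, 4 were higher in males, Tnnt3, Tnni2, Tnnc2 and Myl1, and none lower, where 8.78% of all genes were higher in males and 7.33% lower (2196 of 13626 genes called in all). With scaling by total count alone, the 1197 genes called higher and 999 called lower became 826 and 1522, and among the 10 the same number rose while Atp2a1 was called lower (-0.17). The median log2 fold change of the 10 was 0.22, beside -0.007 over all genes.

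The 3 fast troponin genes rose together in males. Tnni2 was between 6738 and 8536 CPM in females (median 7625) and between 8636 and 11182 in males (median 9098). The sexes did not overlap, which was so for 0.939% of all genes in this direction and for 0.389% in the other. The log2 fold change was 0.33 (95% interval 0.2 to 0.45, adjusted p = 0.000893 by edgeR), a fold of 1.25. Tnnc2 did not overlap either, with 7136 to 9598 CPM in females (median 8854) and 9668 to 12871 in males (median 10315), and a log2 fold change of 0.31 (0.17 to 0.45, adjusted p = 0.00286 by edgeR). Tnnt3 was between 18148 and 24505 CPM in females (median 20979) and between 21602 and 28097 in males (median 23622). Here the ranges overlapped, although all 10 males were above the female median. Its log2 fold change of 0.21 (0.07 to 0.35) was near the threshold (adjusted p = 0.0359 by edgeR). It did not pass without any 1 of 12 mice, namely untreated males 1, 2 and 3, untreated females 2 and 5, HK males 1, 2 and 5 and HK females 1, 2, 4 and 5.

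Myl1, the alkali light chain of fast myosin (chr1:66924295-66945404), had the largest difference between the sexes. It was between 3671 and 7576 CPM in females (median 6094) and between 6967 and 9001 in males (median 7967), and 9 of 10 males were above every female. The log2 fold change was 0.44 (0.25 to 0.63, adjusted p = 0.00213 by edgeR) and 0.38 without untreated female 3 (adjusted p = 0.000299). Mylpf, the regulatory light chain, had 7504 CPM as the median of females and 8068 as that of males, and its difference of 0.14 did not pass (adjusted p = 0.205 by edgeR). Tpm1, which encodes the alpha-tropomyosin of fast fibres and is also used in other tissues, differed by 0.23 (adjusted p = 0.0603 by edgeR), Pvalb by 0.3 (adjusted p = 0.0876) and Casq1 by 0.21 (adjusted p = 0.105). These 3 passed when untreated female 4 was left out (adjusted p of 0.0367 to 0.046 by edgeR), which brought the number called to 7, and Tpm1 also without untreated female 1. Untreated female 4 had the highest female level of Pvalb (8072 CPM) and Casq1 (2852 CPM).

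**Figure D3:**
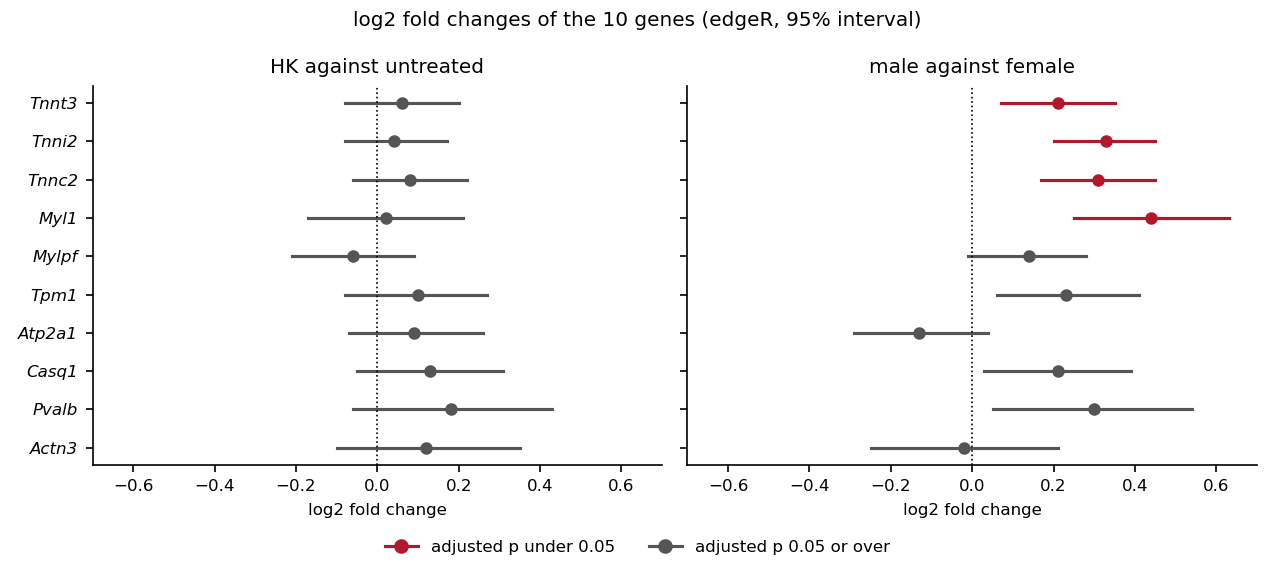
Log2 fold changes of the 10 genes with 95% intervals from edgeR, for HK-treated against untreated mice and for males against females. Red marks an adjusted p under 0.05. All intervals of the treatment include 0, while the 3 troponin genes and Myl1 lie to the right of it in males.

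Within the batches the difference was stronger in batch 1. In batch 1 alone 6 of the 10 were higher in males (Tnnt3, Tnni2, Tnnc2, Myl1, Casq1 and Pvalb), and in batch 2 alone none was, while Atp2a1 was lower (-0.32, adjusted p = 0.0467 by edgeR). The log2 fold change of Tnni2 was 0.47 in batch 1 and 0.21 in batch 2, and that of Myl1 0.51 and 0.37. Over all genes, 1299 were called in batch 1 (775 higher in males and 524 lower) and 905 in batch 2 (446 higher and 459 lower). A test of the sex difference between batches was added after the data were seen. For all 10 genes the male minus female log2 difference was lower in batch 2 than in batch 1, with interaction terms of -0.65 to -0.13, and no gene of the 13626 passed (percent called 0; 878 or 6.44% were higher and 881 or 6.47% lower at an unadjusted p under 0.05).

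Atp2a1 and Actn3 turned their direction between the batches. In batch 1 Atp2a1 was between 33614 and 36559 CPM in the 4 females and between 37048 and 39780 in the 4 males. In batch 2 it was between 38365 and 45930 CPM in the 6 females and between 27238 and 36852 in the 6 males. So all males were above all females in batch 1 and all below them in batch 2, a pattern seen in 3 of 13626 genes (0.022%), and the opposite one in 0. In both batches all males were above all females for 1.37% of genes and below them for 0.719%. The log2 fold change was 0.13 in batch 1 and -0.32 in batch 2, and the difference between them -0.44 (95% interval -0.69 to -0.18, unadjusted p = 0.00193, adjusted p = 0.168 by edgeR and 0.0148 by DESeq2). Actn3 was between 8460 and 11960 CPM in females and between 12519 and 14112 in males of batch 1, and between 10955 and 16340 in females and between 8633 and 11887 in males of batch 2. The 2 sexes overlapped in batch 2. The difference between the batches was -0.65 (-1.01 to -0.3, adjusted p = 0.159 by edgeR and 0.0253 by DESeq2, which called 143 genes in all). Over both batches together, Atp2a1 differed by -0.13 (adjusted p = 0.293 by edgeR) and Actn3 by -0.02 (adjusted p = 0.921).

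**Figure D4:**
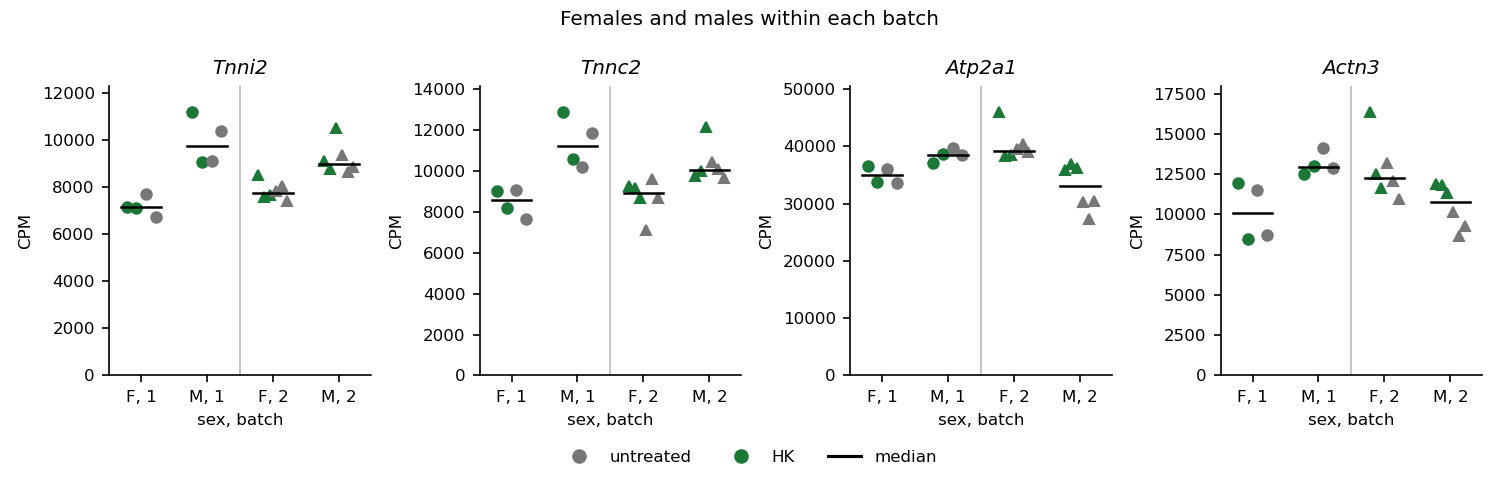
Levels in CPM of 4 genes in females (F) and males (M) of batches 1 and 2, with axes that start at 0, untreated mice in grey, HK-treated mice in green, and lines at the medians. Tnni2 and Tnnc2 are higher in males of both batches, whereas for Atp2a1 the males lie above the females in batch 1 and below them in batch 2.

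The mean sex differences were larger for the ratios to the relatives, although the sexes overlapped in all 9. The log2 ratio to the relative was higher in males for 8 of 9 pairs, by 0.83 to 1.81 (exact permutation test within treatment and batch, adjusted p of 0.00281 to 0.01). The largest difference was that of Tnni2 over Tnni1, which was 1.67 to 2.06 with any 1 mouse left out. Its ratio was 4.97 to 5.9 in females (median 5.49) and 4.73 to 8.49 in males (median 7.61), where untreated male 3 was the lowest of all mice. The exception was Actn3 over Actn2, which differed by 0.1 (exact permutation p = 0.534), with 0.74 in batch 1 and -0.32 in batch 2. In batch 1 all 9 had the smallest p the design allows (exact p = 0.0556), so none could pass there, and in batch 2 none passed after adjustment. Most of the difference in these ratios came from the relatives: 8 of 10 slow contractile genes were lower in males, with a median log2 fold change of -1.12 over the list (10 of 10 lower and -1.5 without untreated male 3), among them Myh7 (-1.46), Tnni1 (-1.26) and Atp2a2 (-1.1). Myl3 (-0.58, adjusted p = 0.116 by edgeR) and Casq2 (-0.57, adjusted p = 0.0507) did not pass.

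Other genes of muscle fibres differed between the sexes in both directions. Of 3 fast myosin heavy chain genes, Myh2, the chain of fast oxidative fibres, fell in males by 0.45 (adjusted p = 0.00265 by edgeR), and Myh4 (-0.09) and Myh1 (-0.13) did not pass. The medians of Myh4 and Myh1 turned between the batches, as those of Atp2a1 and Actn3 did. In batch 1 they were 58722 CPM in females and 69714 in males for Myh4, and 3534 and 4256 for Myh1. In batch 2 they were 63424 and 53368 CPM for Myh4, and 5981 and 4676 for Myh1. The sexes overlapped in both batches for Myh4 and in batch 2 for Myh1. Myh2 had the lower median in males of both batches. Of 7 further genes of fast fibres, Tmod4, which caps thin filaments (0.27, adjusted p = 0.000627 by edgeR), and Myoz1, a Z-disc protein (0.3, adjusted p = 0.00398), were higher in males and none lower. Of 15 sarcomere genes of all fibres 3 were lower, Mybpc1 most clearly (-0.52, adjusted p = 3.88e-05 by edgeR), and none higher. Among 12 genes of calcium release and uptake, Srl was higher (0.23) and Cacnb1, a subunit of the voltage sensor, lower (-0.29). Among 13 regulators of the fibre type, Prox1 (-1.23), known for its part in slow fibres, and Vgll2 (-0.59) were lower. With HK none of the genes in these lists passed over all genes. The lowest p in each belonged to Myh2 (-0.22), Smtnl1 (-0.38), Casq2, Actn2, Jph1 (0.17) and Maf (0.33), all with adjusted p = 0.795 by edgeR.

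Markers of muscle and of other cell types also differed between the sexes, and their part in the differences above was not tested. Of 5 skeletal muscle markers 4 were above 0 in males, with a median of 0.15, and Ckm, the muscle creatine kinase, passed (0.21, adjusted p = 0.046 by edgeR). All 3 adipocyte markers were lower in males (summed level 6.75 to 124 CPM in females and 7.75 to 68.5 in males), as were 2 of 3 Schwann cell markers (44.1 to 121 and 20.7 to 88.6 CPM). Of 7 macrophage markers Cd68 was higher in males (summed level 19.6 to 99.6 CPM in females and 14 to 168 in males). No marker of 4 endothelial, 4 fibroblast, 5 erythrocyte, 3 tendon or 3 smooth muscle genes passed, and no marker list had a gene at 0 in a whole sex. With HK no marker passed.

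Batch 2 against batch 1 changed none of the 10 genes past the threshold (-0.19 to 0.17, adjusted p of 0.0662 to 0.972 by edgeR), although 37.2% of all genes were called (18.2% higher and 19% lower). Mylpf (0.17) and Tpm1 (-0.19) came nearest, with unadjusted p of 0.0266 and 0.0381 by edgeR, where 23.1% of all genes were higher and 23.6% lower at an unadjusted p under 0.05. Between the same batches, 7 of 7 macrophage, 4 of 4 fibroblast and 5 of 5 erythrocyte markers were higher in batch 2.

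From mouse to mouse Atp2a1 and Actn3 varied with each other more closely than with most of the other 8 genes. The values of each gene were centred within treatment, sex and batch, so the correlations describe 20 mice that share library scaling, and no test was made. Among the 28 pairs of the other 8 genes Pearson's r had a median of 0.73 (-0.02 to 0.94), with 0.94 for Tpm1 and Pvalb and 0.92 for the neighbouring genes Tnnt3 and Tnni2. Atp2a1 and Actn3 had an r of 0.83 with each other but of -0.33 to 0.58 with the other 8 genes (16 pairs, median 0.12). Without untreated female 3 these values were 0.76 (0.32 to 0.93), 0.86 and 0.29 (-0.36 to 0.57). The 3 troponin pairs then had an r of 0.87 to 0.93 and Myl1 and Mylpf one of 0.79, while Myl1 had 0.32 to 0.51 with the troponin genes. For likeness to the mean of the 10 across mice, values were adjusted for batch and sex only, so that differences between treatments were kept. The genes most like that mean were Arl3 (r = 0.94), Cib2 (0.92), Eepd1 (0.88), Phkg1 (0.87) and Mob2 (0.86). Among those least like it were Tnfrsf12a (-0.86) and Tekt2 (-0.85), of 13616 genes outside the list.

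**Figure D5:**
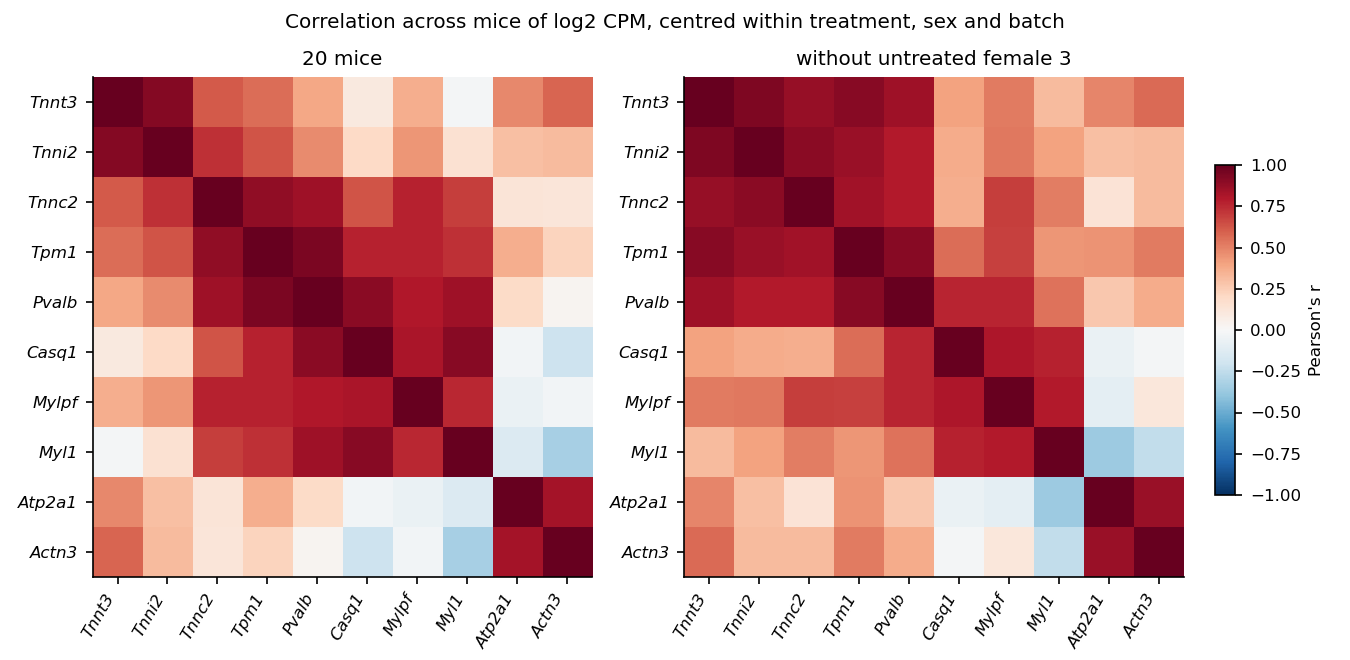
Pearson's r between the 10 genes across mice, for log2 CPM centred within treatment, sex and batch, with all 20 mice and without untreated female 3. Red is positive and blue negative. Atp2a1 and Actn3 are closer to each other than to any of the other 8 genes in both panels. The other 8 genes are not uniformly close, with r of -0.02 to 0.94 among them over 20 mice.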

How the data were processed

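Gastrocnemius RNA of 20 mice was sequenced from rRNA-depleted libraries. The authors aligned the reads with STAR 2.6.1c to GRCm38.p6 and deposited raw counts per gene, quantified with a GENCODE annotation. How reads were counted (tool, strand, reads that match more than 1 gene) is not given in the sources used here. Labels gave treatment, sex, batch and replicate, and the paper the age. Names, positions and exon lengths came from GENCODE M21 on GRCm38, an older release than that of the authors. Of the 55401 identifiers, 260 did not match and held 0.00127% of the counts.

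Counts were fitted with edgeR 4.0.16 in R 4.3.3 (TMM, filterByExpr, quasi-likelihood test, batch, sex and treatment as terms, 16 residual degrees of freedom), and p-values were adjusted by Benjamini-Hochberg over 13626 genes. An adjusted p under 0.05 was a call. limma 3.58.1 (voom) and DESeq2 1.42.0 were alternatives. Log2 ratios of counts (0.5 added) and correlations used permutation tests. On simulated counts for 13626 genes, 61% of 100 genes changed by 0.5 and 87% of 100 changed by 1 on the log2 scale were recovered for HK, and 60% and 87% for sex.

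The members, pairs and lists were chosen with earlier results of these data known. Named are the 10 members, their relatives, in each other list the called genes or the one with the lowest p (examples where many were called), and the genes most and least like the members' mean. Results for 2 genes chosen by this rule are not reported here. Untreated female 4 and the batch pattern of Atp2a1 were singled out after their values were seen. Protein sequences and 3 promoters were not used here.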

Additional observations from a re-analysis of the deposited data

Results flagged for a closer look

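Untreated female 3 lay far from the other mice in 3 of the 10 genes, after the values were adjusted for the other factors. Her gap to the next mouse, as a share of the range of the 10 mice of her group, was 0.553 for Myl1, 0.548 for Casq1 and 0.471 for Pvalb, past the critical value of 0.466, and the shares were the same among untreated mice and among females. These are 3 genes in 1 mouse, each seen in both of her groups of 10. Among the 5 untreated females the shares were the same, but under the critical value of 0.71 for 5 mice. Chance passes the critical value in about 1 in 20 independent groups, and the 80 checked here share mice and genes. Without her, 4 genes were still called between the sexes, the log2 difference of Myl1 with HK went from 0.02 to -0.05, and the ratio of Casq1 to Casq2 with HK no longer passed (adjusted p = 0.055, exact permutation test).

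For Atp2a1 every male was above every female in batch 1 and below every female in batch 2. The difference of the log2 fold changes was -0.44. It did not pass over all genes by edgeR (adjusted p = 0.168) and passed by DESeq2 (adjusted p = 0.0148). Sex and batch were balanced over treatment, and what else differed between the mice of the 2 batches was not tested.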

How the results depend on the processing

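The alternatives were DESeq2 size factors, scaling by total count, scaling without contractile genes, no filter on low counts, DESeq2, limma voom, no covariates, each batch, sex or treatment alone, a replicate block and each mouse left out. With HK, 0 of the 10 genes were called under every one of them. With HK the sign of Myl1 changed with total counts (-0.01) and in males alone (-0.02), and in batch 1 alone that of Tpm1 (-0.03), Atp2a1 (-0.02) and Actn3 (-0.03). Leaving out 1 mouse gave -0.05 to 0.07 for Myl1 with HK and -0.09 to 0.02 for Actn3 between the sexes. Between the sexes Atp2a1 (0.13) and Actn3 (0.36) turned in batch 1 alone, Actn3 also in HK-treated mice alone (0.01) and Actn3 over Actn2 in batch 2 alone (-0.32).

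Of the 10 genes, 4 were called between the sexes, against 7 with no filter, 1 in batch 2 alone, 1 in HK-treated mice alone, 0 in untreated mice alone, and 3 to 7 with 1 mouse left out. The test of sex by batch called 0, against 2 with no filter and 2 by DESeq2. The ratios with HK gave 2 calls, against 0 in batch 1 alone, 1 in batch 2 alone and 1 to 9 with 1 mouse left out, and those between the sexes 8, against 0 in each batch alone. In batch 1 no ratio could pass, since the smallest exact p is 0.0556. Over all genes HK called 0, against 502 with no filter and 7 by DESeq2, and sex 2196, against 637 in HK-treated, 478 in untreated mice, 1299 in batch 1 and 905 in batch 2. Why these counts moved was not tested, but the subsets hold fewer mice.

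With a replicate block, the genes called were 0 with HK and 3 between the sexes, and the ratio calls with HK 1 (Actn3 over Actn2). Mice of the same sex and number did not deviate together (correlations of -0.33 to 0.23), so the numbers were not taken as pairs, and whether each mouse correlates best with its own number was not tested.

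Counting error is small for these abundant genes. The intervals of the treatment, which reached 0.43 for Pvalb, hold the spread between mice. Added after the data were seen, the slow list without untreated male 3 had a median of -0.26 with HK against -0.67 with all mice.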
